A study of Mus musculus with 28 samples.

Results

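The receptor Fn14, its ligand TWEAK and 7 related genes of the tumour necrosis factor (TNF) superfamily were followed through development of the mouse visual thalamus. They are 9 of the 26581 genes listed in the deposited tables and were taken by gene symbol. The ligands are Tnfsf12 (TWEAK) and Tnfsf13 (APRIL). The receptors are Tnfrsf12a (Fn14), Tnfrsf1a and Tnfrsf1b (the TNF receptors), Tnfrsf21 (death receptor 6), Tnfrsf25 (death receptor 3), Tnfrsf19 (TROY) and Tnfrsf11b (osteoprotegerin). All 9 were listed in each of the 6 comparisons of adjacent ages, and all 9 passed the filter on low counts in each.

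RNA was sequenced from the dorsal lateral geniculate nucleus (dLGN), the part of the thalamus through which signals of the retina reach visual cortex. The mice were wild-type C57BL/6J of both sexes in standard housing, and no group carried a transgene, a deletion or a treatment. The 7 ages were embryonic day 18 (E18) and postnatal days 4, 10, 16, 20, 27 and 32 (P4 to P32), with 4 libraries per age and 28 in all. Per the labels, the nucleus was dissected by eye from vibratome slices, 4 mice per age were processed as independent samples, and total RNA was depleted of ribosomal RNA. The series was made for a study of Fn14 in the refinement of connections between retina and dLGN that depends on visual experience.

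TWEAK is made as a membrane protein that the protease furin can release, and it signals through Fn14, a small receptor without a death domain that binds TRAF adaptors and can engage NF-kB. Tnfrsf1a, Tnfrsf21 and Tnfrsf25 carry a death domain and can couple to cell death as well as to NF-kB, whereas osteoprotegerin is a secreted decoy. Receptors of this family are made by neurons, glia and vessel cells of the brain, so their mRNA in whole tissue can come from several cell types. In such bulk samples, fewer cells of a type and less RNA per cell cannot be told apart.

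Library totals ran from 8224851 to 40206549 reads, so that 3 reads correspond to between 0.0746 and 0.365 CPM (reads of a gene scaled to the size of its library). Relay neuron markers (Slc17a6, Slc17a7, Tcf7l2, Lef1 and Prkcd) had reads in all 28 libraries. In P16 library 3, P20 library 3 and P32 library 3, summed inhibitory neuron markers (1049, 1897 and 2207 CPM) exceeded summed relay markers (797, 714 and 523 CPM), unlike in the other 25 libraries. Some results that include them are also given without them, and the values of others may move too. All 4 E18 libraries and P27 library 5 held at least 10 CPM of Xist and also of Y-linked genes, whereas all 4 P4 libraries held Xist alone. The sex make-up therefore differed between ages, and no fit had a term for it. The labels describe 4 mice per age as independent samples, and the sources used here do not explain the libraries with both. Whether tissue of several animals entered a library could not be told, so what a library stands for at E18 is uncertain. Choroid plexus markers summed to between 3.20 and 27.6 CPM at the ages from P4 on, against 137 to 1022 CPM at E18.

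The stretch before the transcription start is shown for Tnfrsf12a, for Relt, the receptor gene whose mRNA followed it most closely, and for Tnfrsf21, whose mRNA moved the other way. Sequences are the 250 bases before the RefSeq start (GRCm38.p6), 5′ to 3′ on the gene's own strand. Capitals mark GC boxes (GGGCGG) and E-boxes (CANNTG), each searched on both strands.
Tnfrsf12a, chr17:23677450-23677699, minus strand: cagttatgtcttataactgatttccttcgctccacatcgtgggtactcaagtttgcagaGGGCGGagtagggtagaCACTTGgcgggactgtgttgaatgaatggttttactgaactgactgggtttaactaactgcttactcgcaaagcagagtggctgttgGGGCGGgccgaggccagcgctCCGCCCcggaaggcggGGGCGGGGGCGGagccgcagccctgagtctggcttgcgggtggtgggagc
Relt, chr7:100863414-100863663, minus strand: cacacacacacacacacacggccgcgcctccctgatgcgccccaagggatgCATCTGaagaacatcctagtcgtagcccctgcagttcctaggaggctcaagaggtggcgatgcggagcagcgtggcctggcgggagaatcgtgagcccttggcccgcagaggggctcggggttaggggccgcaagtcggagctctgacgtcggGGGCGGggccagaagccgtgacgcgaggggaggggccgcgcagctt
Tnfrsf21, chr17:43016305-43016554, plus strand: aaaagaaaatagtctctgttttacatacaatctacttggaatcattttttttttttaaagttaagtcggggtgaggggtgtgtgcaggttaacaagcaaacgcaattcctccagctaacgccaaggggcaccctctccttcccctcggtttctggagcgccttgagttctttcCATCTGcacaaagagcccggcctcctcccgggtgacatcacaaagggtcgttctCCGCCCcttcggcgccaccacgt
The Tnfrsf12a stretch held 5 GC boxes, 2 of them side by side between 50 and 39 bases before the start, and 1 E-box. The Relt and Tnfrsf21 stretches each held 1 GC box and 1 E-box. CpG pairs numbered 15 before Tnfrsf12a, 22 before Relt and 12 before Tnfrsf21, against a median of 6 over 32851 such windows. Of those windows, 32.7% held a GC box and 66.2% an E-box.

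RefSeq windows were found for 7 of the 9 genes, at 9 starts in all. A GC box stood in a window of 5 of the 7 and an E-box in a window of 4. An AP-1 site (TGANTCA, 6.75% of all windows) was found before Tnfsf13 alone of the 7. No window of the 7 genes held TATAAA (12.4% of all windows), the cAMP response element TGACGTCA (1.55%) or an NF-kB site (3.90%). These matches describe letters in short windows only.

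Tnfrsf12a (gene ID 27279, chromosome 17, 23675445 to 23677449, minus strand, GRCm38, 4 exons in the deposited table) was lowest before birth and highest at the last age. Its level in each library is given in CPM, scaled over all 28, in the order of library 3, 4, 5 and 6. At E18 they were 1.06, 1.52, 0.661 and 1.12 CPM. By P4 they were 0.958, 4.08, 1.35 and 1.39 CPM, and at P10 they were 2.27, 6.44, 4.23 and 4.06 CPM. Every P10 library stood above every E18 library, while P4 library 4 stood well above the other three of its age.

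P16 libraries held 4.23, 7.49, 8.64 and 9.11 CPM of Tnfrsf12a, and P20 libraries held 3.89, 6.44, 11.7 and 3.46 CPM. P27 libraries held 5.15, 5.26, 11.0 and 4.67 CPM. At P32 the values were 4.31, 15.0, 16.1 and 13.5 CPM, so that 3 libraries exceeded every library of all earlier ages and library 3 stood apart below them. The ages from P16 to P27 overlapped one another throughout.

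**Figure D1:**
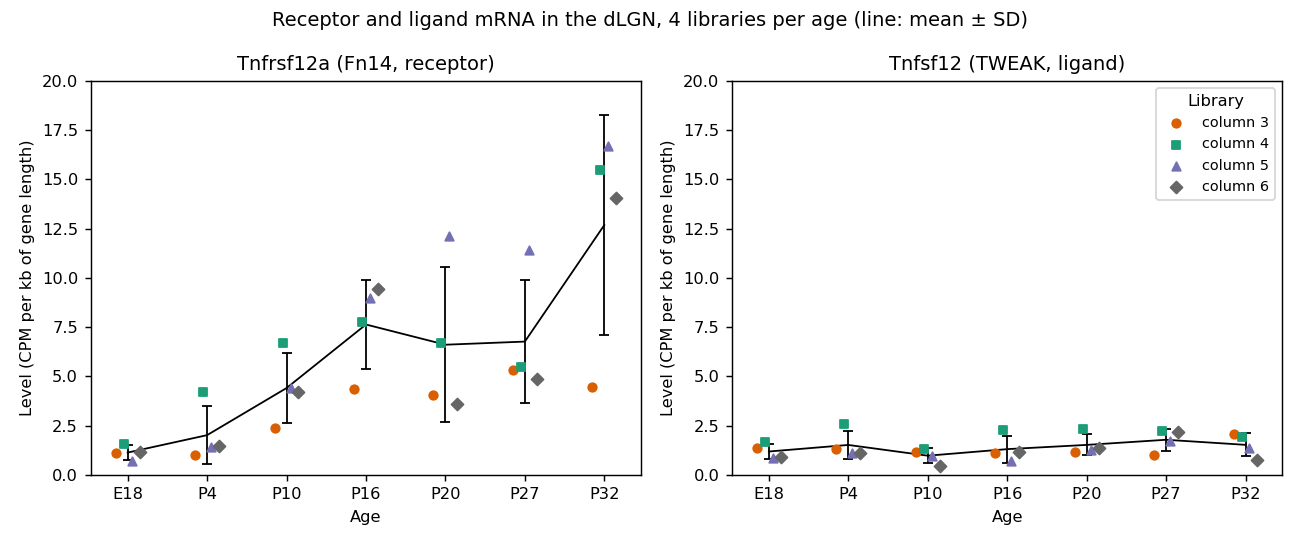
Level of Tnfrsf12a (left) and Tnfsf12 (right) in CPM per kilobase of the deposited gene length at each of 7 ages; points are the 4 libraries of an age, named by column number, and lines join means ± SD. Tnfrsf12a stands between 4.47 and 16.7 at P32, against 0.685 to 1.58 at E18, while Tnfsf12 stays between 0.429 and 2.58 at every age.

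Over the whole course the rise of Tnfrsf12a passed the test. It averaged 12.2 ± 5.39 CPM at P32, against 1.09 ± 0.35 CPM at E18 (SD, n = 4 each). The log2 fold change was 3.48 (SE 0.50, adjusted p = 1.69e-06, edgeR quasi-likelihood test in 1 fit of 28 libraries). Of the 19989 genes tested, 482 (2.41%) had a larger log2 fold change. Without the 3 libraries in which inhibitory markers exceeded relay markers it was 3.81 (adjusted p = 1.70e-07).

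In edgeR fits of adjacent ages without a replicate block, no single step carried the rise past the threshold. At P4, Tnfrsf12a averaged 2.20 ± 1.69 CPM, against 1.22 ± 0.42 CPM at E18, a log2 fold change of 0.78 (SE 0.49, adjusted p = 0.413, edgeR). Without P4 library 4 it was 0.16 (adjusted p = 0.845). At P10 it averaged 4.52 ± 1.78 CPM, against 2.04 ± 1.52 CPM at P4, a log2 fold change of 1.20 (SE 0.47, adjusted p = 0.0962). Without the same P4 library 4 the log2 fold change of that step was 1.78 and the adjusted p 0.00792. Libraries with the same column number deviated together over E18, P4 and P10, and with the column number as a replicate block the step was 1.29 (adjusted p = 0.0045). By limma-voom it was 1.39 (adjusted p = 0.034).

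At P16, Tnfrsf12a averaged 7.27 ± 2.10 CPM, against 4.24 ± 1.70 CPM at P10, a log2 fold change of 0.81 (SE 0.34, adjusted p = 0.153, edgeR). Without P16 library 3, 1 of the 3 libraries in which inhibitory exceeded relay markers, it was 1.00 with an adjusted p of 0.0493. With the column number as a replicate block this step passed, but libraries numbered 6 did not deviate together over these ages. Little separated the next ages, with log2 fold changes of -0.22 (SE 0.39) for P20 over P16 and 0.02 (SE 0.42) for P27 over P20. The second was negative without P20 library 3 (-0.15), P20 library 6 (-0.18) or P27 library 5 (-0.35). The last step, P32 over P27, was 0.92 (SE 0.41), with 11.5 ± 4.89 CPM at P32 and 6.02 ± 2.57 CPM at P27. Its unadjusted p was 0.0433 and its adjusted p 1.00, in a comparison in which none of 17856 genes passed.

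In order of its mean level, Tnfrsf12a ran E18, P4, P10, P20, P27, P16 and P32. No pair of neighbours in that order differed past the threshold in the fit of 28 libraries, with adjusted p values from 0.116 to 0.987. Ages further apart did. P32 over P4 gave a log2 fold change of 2.72 (SE 0.49, adjusted p = 5.93e-05), where 38.2% of all genes passed. P32 over P10 gave 1.54 (SE 0.46, adjusted p = 0.0176), which fell short of the threshold without P10 library 3 (1.35, adjusted p = 0.0642). In that pair 19.2% of all genes passed. These 2 pairs were picked after the levels were seen.

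From P16 on, library 3 of each age had the lowest relay sum, and its Tnfrsf12a level was 4.23 CPM at P16, 3.89 at P20, 5.15 at P27 and 4.31 at P32. P27 libraries 4 and 6, with relay sums of 2347 and 2504 CPM, were also low in Tnfrsf12a, at 5.26 and 4.67 CPM. P20 library 6, with a relay sum of 1246 CPM, held 3.46 CPM. At P20, P27 and P32, library 5 had the highest relay sum of its age (2717, 2759 and 2828 CPM). It also held the most Tnfrsf12a there (11.7, 11.0 and 16.1 CPM). At P16 library 5 had the highest sum (2757 CPM), but library 6 held the most Tnfrsf12a (9.11 CPM). The relay sum ran from 523 to 2828 CPM over the 4 libraries of P32, against 730 to 1266 CPM at E18. P32 library 3 had the 523 CPM, and the other three P32 libraries stood above every E18 library. Of the 5 relay markers, 2 rose in P4 over E18 (Slc17a6 and Slc17a7), 1 in P10 over P4 (Slc17a7) and 1 in P16 over P10 (Prkcd). Medians of other marker sums also differed between E18 and P32. They rose from 106 to 1769 CPM for astrocytes, 80.3 to 25052 for myelinating oligodendrocytes and 56.3 to 230 for microglia. Not every sum rose, and that of immature neurons fell from 3040 to 106 CPM. The part of any of these cell types in the Tnfrsf12a result was not tested, beyond leaving out the libraries in which inhibitory exceeded relay markers.

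**Figure D2:**
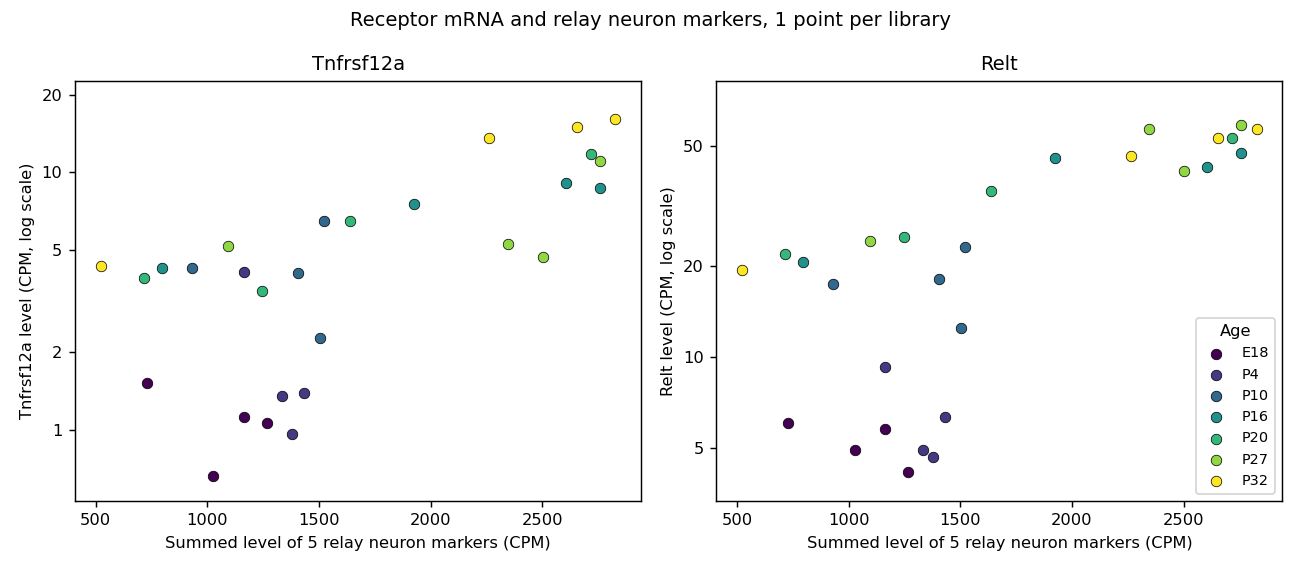
Level of Tnfrsf12a (left) and Relt (right) in CPM on a log scale against the summed level of 5 relay neuron markers in CPM, 1 point per library, coloured by age. The libraries numbered 3 of P16 and later, with relay sums of 523 to 1093, hold 3.89 to 5.15 CPM of Tnfrsf12a, while E18 libraries with sums of 730 to 1266 hold 0.661 to 1.52 CPM.

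The ligand gene Tnfsf12 (gene ID 21944, chromosome 11, 69686240 to 69696098, minus strand, GRCm38) did not follow its receptor. Its libraries held 3.47, 3.22, 2.34 and 1.28 CPM at P32, against 2.27, 2.82, 1.42 and 1.51 CPM at E18. Those 2 ages overlapped, and so did every pair of neighbours between them. Tnfsf12 averaged 2.58 ± 0.99 CPM at P32, against 2.00 ± 0.67 CPM at E18 (SD, n = 4 each), a log2 fold change of 0.36 (SE 0.42, adjusted p = 0.503, edgeR). A test of any difference among the 7 ages gave an adjusted p of 0.599. Even its highest age over its lowest, P27 over P10, gave 0.90 (SE 0.43, adjusted p = 0.156), with 3.01 ± 0.95 CPM at P27 and 1.64 ± 0.65 CPM at P10, a pair in which 20.2% of all genes passed.

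Tnfsf12 rested on 17 to 109 reads per library, and Tnfrsf12a on 14 to 412. The annotation (GENCODE M21) gives Tnfsf12 731 exonic bases in common with the read-through gene of Tnfsf12 and Tnfsf13, and Tnfsf13 983. The read-through gene itself was listed with 24 to 202 reads per library. Tnfsf13 also shares 221 exonic bases with the antisense gene Tnfsf13os, which had 0 to 28 reads. The sources used here do not state how reads of these genes were divided, so the levels of both ligands are uncertain to that extent. No other of the 9 genes shares exonic bases with another annotated gene.

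Per kilobase of deposited gene length, Tnfrsf12a mRNA stood close to Tnfsf12 mRNA before birth and above it later. The ratio of receptor to ligand per library had a median of 0.883 at E18 (0.819 to 1.30) and 1.31 at P4 (0.756 to 1.64). At P10 it was 4.78 (2.04 to 9.81), at P16 6.17 (3.38 to 12.9), at P20 3.20 (2.63 to 9.65), at P27 3.88 (2.25 to 6.64) and at P32 10.1 (2.18 to 18.6). Every library from P10 on had more receptor than ligand mRNA on this scale, and the E18 and P4 libraries ranged around equality. The scale depends on the transcript taken: the deposited length of Tnfrsf12a is 965 bases, whereas its merged exons in GENCODE span 1932 bases. With GENCODE lengths the median ratio was 4.53 at P32, against 0.394 at E18 and 0.583 at P4. On that scale the E18 and P4 medians thus stood below equality. Its medians at the ages between were 2.13 at P10, 2.76 at P16, 1.43 at P20 and 1.73 at P27. That every library from P10 on had more receptor than ligand mRNA holds for the deposited lengths, not for GENCODE lengths. The ratio is a description and was not tested.

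The other ligand gene, Tnfsf13, encodes APRIL, a survival factor of B cells. It held between 0.591 and 3.38 CPM in all 28 libraries, from 10 to 75 reads. The test of any age gave an adjusted p of 0.658 (edgeR). Its E18 libraries alone ran from 0.591 to 2.26 CPM, which covers the mean of every other age. No age stood apart.

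Of the receptors with a death domain, Tnfrsf1a (gene ID 21937, chromosome 6, 125349723 to 125362483, plus strand, GRCm38), the main receptor of soluble TNF, rose early. Its libraries held 8.43, 6.12, 7.34 and 6.94 CPM at P4, against 4.39, 4.17, 3.21 and 2.92 CPM at E18. Every P4 library stood above every E18 library. It averaged 8.05 ± 0.92 CPM at P4, against 4.09 ± 0.80 CPM at E18 with these 8 libraries scaled together (SD, n = 4 each). The log2 fold change was 0.98 (SE 0.22, adjusted p = 0.0213, edgeR). It was the 1 of the 9 genes that passed in this comparison, where 7.87% of 18797 genes passed and 4.75% passed as higher.

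In fits without a replicate block, the Tnfrsf1a call in P4 over E18 depended on single libraries. It was lost without E18 library 5 (adjusted p = 0.102), E18 library 6 (0.0693), P4 library 3 (0.0643) or P4 library 6 (0.0553), with log2 fold changes from 0.88 to 1.06 over the 8 refits. In the fit of 28 libraries the same step gave 0.97 (adjusted p = 0.00667), and 5.97% of all genes passed there. In the same comparison 6 of 8 microglial markers rose, with sums of 106 to 138 CPM at P4 and 47.2 to 63.8 CPM at E18. So did 5 of 6 astrocyte markers, with sums of 527 to 835 CPM at P4 and 97.6 to 184 CPM at E18, and 6 of 6 oligodendrocyte precursor markers. None of these markers was at 0 in any library, and their part in the result was not tested. P4 libraries held Xist alone and E18 libraries both Xist and Y-linked reads, so age and sex make-up cannot be told apart here.

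After P4, Tnfrsf1a kept to a plateau, with means of 8.77 ± 1.64 CPM at P10, 7.89 ± 1.91 at P16, 7.80 ± 1.81 at P20, 8.36 ± 1.48 at P27 and 7.78 ± 0.84 at P32. No neighbours in the order of these levels differed past the threshold, other than P4 and E18. At P32 its libraries held 6.85 to 8.59 CPM, against 2.92 to 4.39 CPM at E18, without overlap. The log2 fold change of P32 over E18 was 1.08 (SE 0.23, adjusted p = 0.000281, edgeR).

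Tnfrsf21 (gene ID 94185, chromosome 17, 43016555 to 43089188, plus strand, GRCm38), known for roles in axon pruning and in the differentiation of oligodendrocytes, was the most abundant of the 9 per kilobase. Its libraries held 87.4, 84.0, 75.3 and 70.1 CPM at P32, against 121, 164, 95.1 and 111 CPM at E18. All P32 libraries stood below all E18 libraries. It averaged 79.2 ± 7.92 CPM at P32 and 123 ± 29.7 CPM at E18, and fell by 0.63 on the log2 scale (SE 0.16, adjusted p = 0.00165, edgeR). Its mean was highest at P4, with 119 to 175 CPM, and was lower at each later age.

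P32 over P4, the lowest against the highest age of Tnfrsf21 and picked for that, gave a log2 fold change of -0.88 (SE 0.16, adjusted p = 7.06e-05). No adjacent step passed. Immature neuron markers (Dcx, Sox11 and Sox4) summed to 83.3 to 118 CPM at P32, against 2133 to 3099 CPM at E18, and none was at 0 in any library. Their part in the fall was not tested.

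Tnfrsf25, a death receptor best known from T cells, had the fewest reads of the 9. It rested on 4 to 41 reads per library and held 0.157 to 2.67 CPM. The test of any age gave an adjusted p of 0.493. At P10 it averaged 1.22 ± 0.70 CPM, against 0.56 ± 0.20 CPM at P4 (SD, n = 4 each), a log2 fold change of 1.14 (SE 0.49, adjusted p = 0.126, edgeR). From P16 on, libraries 3 and 4 of each age held more Tnfrsf25 than library 5, with 1.59 and 2.67 CPM against 0.268 CPM at P27.

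Of the receptors without a death domain, Tnfrsf1b, which binds membrane-bound TNF and is made by microglia, stayed level. Its highest mean was 4.39 ± 1.07 CPM at P4 and its lowest 3.49 ± 0.52 CPM at E18 (SD, n = 4 each). The test of any age gave an adjusted p of 0.852. Its log2 fold change of P32 over E18 was 0.01 (SE 0.30). Microglial markers meanwhile summed to 198 to 292 CPM at P32, against 47.2 to 63.8 CPM at E18.

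Tnfrsf19 (gene ID 29820, chromosome 14, 60963834 to 61046855, minus strand, GRCm38) is a Nogo co-receptor in axons, also made by progenitors and glia. Its mean was highest at P10. Its libraries held 66.7, 70.1, 76.7 and 70.2 CPM at E18, and 111, 91.4, 96.4 and 113 CPM at P10. At P32 they held 57.8, 66.2, 74.0 and 70.1 CPM. Every P10 library stood above every E18 and every P32 library. The test of any age passed (adjusted p = 0.00301, edgeR), with means of 67.0 ± 6.92 CPM at P32 and 103 ± 10.8 CPM at P10 (SD, n = 4 each).

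No adjacent step around the highest Tnfrsf19 mean passed in the edgeR fits of adjacent ages without a replicate block. P4 over E18 gave 0.39 (SE 0.15, adjusted p = 0.143) and, with the column number as a replicate block, 0.39 with an adjusted p of 0.00832. P10 over P4 gave 0.18 (SE 0.14, adjusted p = 0.413, edgeR). P4 libraries held 77.4 to 106 CPM and overlapped those of P10, so P10 was not set apart from P4. P16 over P10 gave -0.49 (SE 0.18, adjusted p = 0.102), which passed without P16 library 5 (-0.63, adjusted p = 0.0464). It also passed with the replicate block, but libraries numbered 6 did not deviate together over these ages. In the fit of 28 libraries that step was -0.47 (adjusted p = 0.0459), where 10.9% of all genes passed. P32 over P10, picked as the lowest against the highest age, gave -0.62 (SE 0.15, adjusted p = 0.00406). Precursor markers of oligodendrocytes summed to 172 to 237 CPM at E18, 1014 to 1153 CPM at P10 and 562 to 820 CPM at P32, and their part in the pattern was not tested.

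Tnfrsf11b, the decoy osteoprotegerin, was rare, with 5 to 156 reads per library. It held 0.837, 1.30, 0.603 and 0.788 CPM at P32, against 2.96, 3.28, 2.32 and 3.93 CPM at P10. The P32 and P10 libraries did not overlap. P32 over P10 gave a log2 fold change of -1.82 (SE 0.52, adjusted p = 0.0118, edgeR), again for the lowest against the highest age. The test of any age gave an adjusted p of 0.0271, which missed the threshold without P10 library 6 (0.0658) or P32 library 5 (0.0560). At P27 library 6 held 6.13 CPM, against 1.48 to 1.55 CPM in the other three libraries of P27. The adjacent steps P16 over P10 (-1.10, SE 0.46) and P32 over P27 (-1.57, SE 0.64) had adjusted p values of 0.161 and 1.00.

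**Figure D3:**
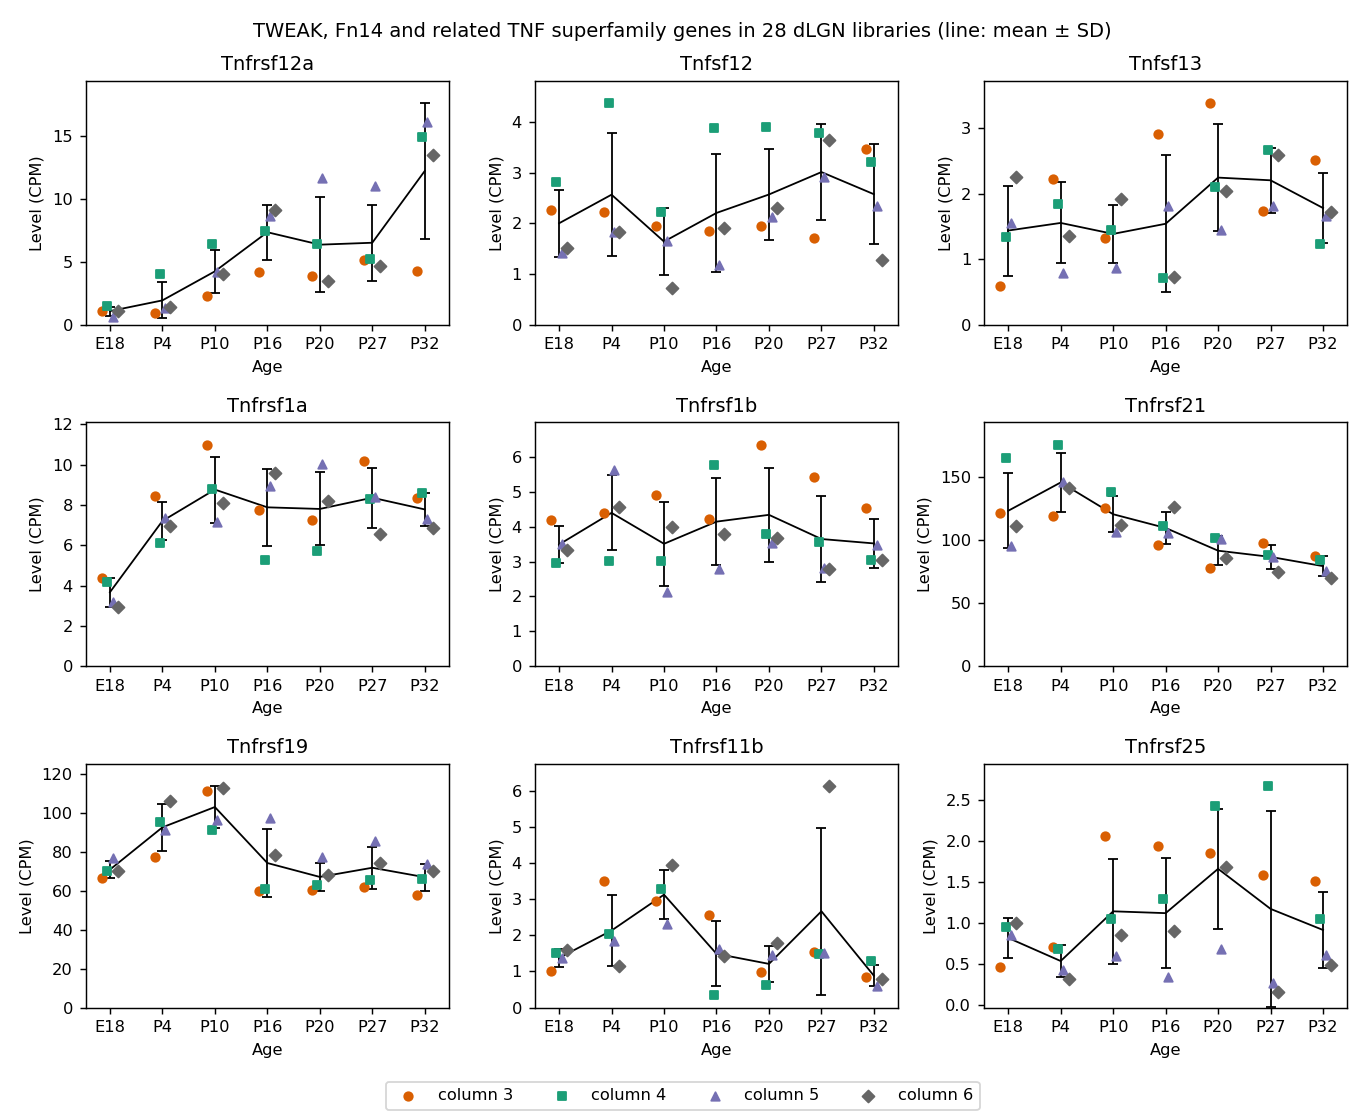
Level in CPM of each of the 9 genes at each of 7 ages; points are the 4 libraries of an age by column number, and lines join means ± SD. Tnfrsf12a climbs, Tnfrsf1a is higher at P4 than at E18, Tnfrsf21 declines after P4, Tnfrsf19 and Tnfrsf11b are highest at P10, and the means of Tnfsf12, Tnfsf13, Tnfrsf1b and Tnfrsf25 stay within the spread of single libraries.

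Counted together, 5 of the 9 genes differed among the 7 ages (Tnfrsf12a, Tnfrsf21, Tnfrsf1a, Tnfrsf19 and Tnfrsf11b), against 51% of all genes tested. In P32 over E18, 3 of the 9 passed, 2 higher and 1 lower, against 47.5% of all genes. The first share is close to its background. The second is lower, but with only 9 genes the difference is small and was not tested. Between adjacent ages, edgeR without a replicate block called 0 of the 9 in P10 over P4 (18.4% of all genes) and 0 in P16 over P10 (11.9%). At an unadjusted p under 0.05 there were 2 and 3 of them. With the column number as a block, edgeR called 1 and 2, and more of all genes passed as well. In the fit of 28 libraries, Tnfrsf19 passed in P16 over P10. DESeq2 and the authors' deposited table called 0 in both comparisons, and limma-voom 1 in P10 over P4. Among P20 over P16, P27 over P20 and P32 over P27, edgeR called 0 of the 9 and 0% of all genes, with 0, 0 and 2 of the 9 at an unadjusted p under 0.05, and DESeq2, limma-voom and the authors' deposited table called 0.

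**Figure D4:**
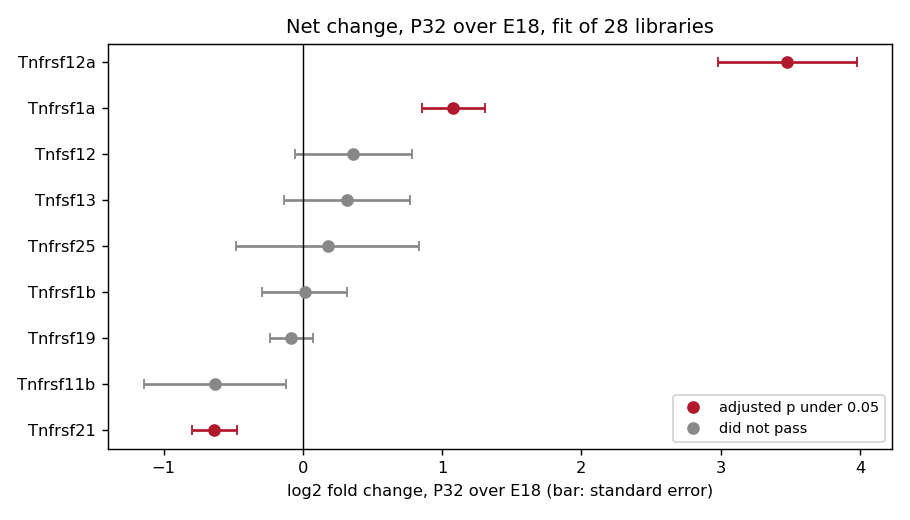
Log2 fold change of P32 over E18 for each of the 9 genes in the fit of 28 libraries; bars are standard errors and red points have an adjusted p under 0.05. Tnfrsf12a stands at 3.48, Tnfrsf1a at 1.08 and Tnfrsf21 at -0.63, and the other 6 genes did not pass.

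Compared per kilobase, the 9 genes differed widely in level. At P32, Tnfrsf21 averaged 21.8 CPM per kilobase, Tnfrsf19 14 and Tnfrsf12a 12.7. Tnfrsf1a followed with 3.61, and the remaining 5 ran from 0.313 to 1.52. At E18, Tnfrsf21 averaged 33.9 and Tnfrsf19 14.8, while Tnfrsf12a, at 1.13, stood below Tnfrsf1a, at 1.7. Tnfrsf12a thus moved past Tnfrsf1a in this order. With GENCODE exon lengths the order of these receptors was the same, with 6.34 CPM per kilobase for Tnfrsf12a and 3.00 for Tnfrsf1a at P32.

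Across the 28 libraries, the genes whose log2 level was most correlated with that of Tnfrsf12a were Relt (Pearson r = 0.94), Icmt (0.94), Ggt7 (0.93), Ccsap (0.93) and Cplx1 (0.92), among 12063 genes compared. The libraries share the course of age, and the values are given as a description. Without the 3 libraries in which inhibitory exceeded relay markers, r with Relt over 25 libraries was also 0.94. Tnfsf12 had no comparably close match: its highest values were 0.72 with Scarna10, 0.72 with Rnf113a2, 0.72 with Rilpl1, 0.70 with Nucb1 and 0.70 with Mrpl38. It rested on only 17 to 109 reads per library and did not differ among ages past the threshold. How far either lowered these values was not tested.

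Relt (gene ID 320100) is itself a receptor of the TNF superfamily. Its libraries held 19.4 to 57.1 CPM at P32, against 4.16 to 6.04 CPM at E18, without overlap. The log2 fold change of P32 over E18 was 3.08 (SE 0.36, adjusted p = 4.57e-08, edgeR). Unlike Tnfrsf12a it passed in adjacent steps: 1.53 (SE 0.26, adjusted p = 0.0022) in P10 over P4 and 1.13 (SE 0.27, adjusted p = 0.0159) in P16 over P10. The second of these missed the threshold without P10 library 6 (adjusted p = 0.0506). Its lowest P32 library was again library 3.

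Among the other TNF receptors, 0 of 16 tested rose and 1 fell in P4 over E18, 3 of 14 rose and 1 fell in P10 over P4, and 2 of 15 rose and 0 fell in P16 over P10. Of all genes, 4.75% rose and 3.12% fell in P4 over E18, 10.3% and 8.16% in P10 over P4, and 6.2% and 5.65% in P16 over P10. The median log2 fold change of the listed receptors was 0.43 in P10 over P4, beside -0.01 over all genes, and -0.22 in P16 over P10, beside 0.01. The one that fell first was Edar, whose mean was under 1 CPM. Ngfr, the low-affinity neurotrophin receptor, averaged 1.46 ± 0.55 CPM at P10, against 9.01 ± 1.09 CPM at P4, and fell by 2.57 on the log2 scale (SE 0.28, adjusted p = 0.000135, edgeR). Relt rose in both later comparisons. Tnfrsf8 (1.38, SE 0.34) and Tnfrsf11a, the receptor RANK (0.76, SE 0.23), rose in P10 over P4, and Tnfrsf4 (0.59, SE 0.16) rose in P16 over P10. The calls of Tnfrsf8, Tnfrsf11a and Tnfrsf4 were lost in 1, 6 and 5 of 8 refits that each left out a library, at adjusted p values up to 0.0546, 0.102 and 0.108.

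Among the other ligands, Tnfsf10, the death ligand TRAIL, averaged 1.90 ± 0.74 CPM at P4, against 0.30 ± 0.19 CPM at E18, a log2 fold change of 2.61 (SE 0.48, adjusted p = 0.00789, edgeR). It was the 1 of 7 tested ligands that rose in that comparison, and Tnfsf9 (-1.37, SE 0.35) was the 1 that fell, where 4.75% of all genes rose and 3.12% fell. In P10 over P4, where 8.16% of all genes fell, 2 of 5 did, Tnfsf9 (-1.89, SE 0.38) and Eda, the ligand ectodysplasin (-1.08, SE 0.29). Leaving out 1 library lost the P4 call of Tnfsf9 in 6 of 8 refits (adjusted p up to 0.110) and the call of Eda in 3 (up to 0.0605). Tnfsf9 shares 192 exonic bases with a long noncoding RNA gene on the other strand, so its reads are uncertain to that extent. None of the 3 ligands tested in P16 over P10 passed by edgeR, 0 of them at an unadjusted p under 0.05.

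Of 13 adaptors and death-signalling genes, 0 passed in P4 over E18 by edgeR (2 at an unadjusted p under 0.05), 1 in P10 over P4 and 2 in P16 over P10, where 7.87%, 18.4% and 11.9% of all genes passed. Traf1, an adaptor of TNF receptors, passed as higher in P10 over P4, at 4.24 ± 0.85 CPM at P10 and 0.92 ± 0.38 CPM at P4, a log2 fold change of 2.22 (SE 0.35, adjusted p = 0.0014). In P16 over P10, Birc2, an inhibitor of apoptosis that binds TRAF proteins, rose (0.82, SE 0.21), and Traf1 fell (-1.24, SE 0.36). Those last calls were lost in 4 and 6 of 8 refits that left out a library, with adjusted p values up to 0.0649 and 0.137.

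Of 14 genes of the NF-kB pathway, 0 passed in any of the 6 adjacent comparisons by edgeR, with 4 of 84 gene tests at an unadjusted p under 0.05 and a lowest adjusted p of 0.0529. Of all genes, 7.87%, 18.4% and 11.9% passed in the first 3 comparisons and 0% in the last 3. Their median log2 fold change lay between -0.10 and 0.10 in the 6 comparisons, beside -0.02 to 0.02 over all genes. Over P32 against E18, 3 of the 14 were higher and 2 lower, where 23.4% and 24.1% of all genes were. Furin, the protease that can release TWEAK, averaged 47.1 ± 4.73 CPM at P10, against 28.2 ± 1.33 CPM at P4, a log2 fold change of 0.74 (SE 0.14, adjusted p = 0.00337, edgeR). Furin likewise shares 118 exonic bases with a noncoding gene on the other strand. Cd163, a macrophage receptor reported to take up TWEAK and also a marker of perivascular macrophages, rose in P4 over E18 (1.57, SE 0.36, adjusted p = 0.0211). Its call was lost in 4 of 8 refits that left out a library, at adjusted p values up to 0.0781.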

How the data were processed

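The authors deposited 12 tables, 2 for each pair of adjacent ages, which were merged by gene ID. Their whole-number read counts per gene and library were used, as deposited. The ratio (fold change) and the p-value in the authors' deposited tables served only as an alternative. Named in the submitters' processing notes are GRCm38 (mm10), BWA and edgeR 3.14.0. The sources used here do not state the counting tool, the annotation or the use of strand. Of the deposited columns, 96 of read density were not used. Gene ID, length and exon number are other deposited values.

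The 9 genes, the wider lists and the markers were chosen with earlier results of these data known. Adjacent ages were tested with edgeR 4.0.16 in R 4.3.3 (filterByExpr, TMM, quasi-likelihood F test, two-sided, Benjamini-Hochberg over all genes tested) on the 8 libraries of each pair, and a call is an adjusted p under 0.05. P32 over E18 and any difference among ages were tested in 1 fit of 28 libraries. It covered the 19989 genes that had a value in every library and passed filterByExpr. Fold changes are later over earlier age. Adjacent-age tests were also run on simulated counts of independent libraries with a fixed spread, in which only genes above a set level changed. That covers neither libraries that deviate together nor changes of genes with few reads. Alternatives included DESeq2 1.42.0 and limma-voom (limma 3.58.1). All 9 genes are named. Of each wider list, the rule took up to 3 called rises and 3 called falls with a mean of at least 1 CPM per comparison. For likeness it took the 5 highest correlations of log2(CPM + 0.5) among genes that averaged 5 CPM or more. Libraries bear the number in the column name (3 to 6), which could not be matched to the replicate numbers of the labels. Libraries of the same number had deviations from their age means that correlated at 0.555 to 0.847 in P4 over E18 and 0.325 to 0.757 in P10 over P4, so the numbers were taken to pair those libraries, from the data alone. P-values measure the spread between these libraries. No library repeated another within sampling noise (chi-square per degree of freedom of at least 27.3 within an age). Floors of 3 reads cover counting error only.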

Additional observations from a re-analysis of the deposited data

Results flagged for a closer look

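Among 63 groups of 4 libraries (9 genes at 7 ages), 5 held a library whose gap to the nearest other was too large a share of the group's range by Dixon's critical value. Chance flags about 1 in 20 groups. Tnfrsf12a was flagged at P4, where library 4 held 4.08 CPM and the others 0.958 to 1.39, and at P27, where library 5 held 11.0 CPM and the others 4.67 to 5.26. Tnfsf12 was flagged at P4 in the same library 4, which held 4.37 CPM beside 1.83 to 2.22. Tnfrsf1b was flagged at P20, where library 3, 1 of the 3 libraries with more inhibitory than relay markers, held 6.35 CPM beside 3.53 to 3.80. Tnfrsf11b was flagged at P27, where library 6 held 6.13 CPM beside 1.48 to 1.55.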

How the results depend on the processing

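The 5 genes differing among ages and the 3 passing in P32 over E18 were as many under each alternative run, except that 4 differed among ages without P10 library 6 or P32 library 5. In P4 over E18 the 1 gene called became 0 with a log2 fold change of at least 1, 2 with the column number as a replicate block, and 0 to 1 with a library left out. In P10 over P4 the 0 became 1 by limma-voom and 1 with the replicate block, and 0 to 1 with a library left out. In P16 over P10 the 0 became 1 in the fit of 28 libraries, 2 with the replicate block (Tnfrsf12a, adjusted p = 0.0363, and Tnfrsf19, 0.0404), 1 without the libraries in which inhibitory exceeded relay markers, and 0 to 1 with a library left out. The last alternative was chosen after seeing the data. The later comparisons gave 0 throughout. From P16 on, libraries numbered 6 did not deviate together (r from -0.36 to -0.01). Libraries numbered 3, 4 and 5 did, with r from 0.385 to 0.731. The numbers may therefore not pair every library there. With the block, Tnfsf12 in P27 over P10 was 0.95 (adjusted p = 0.0427), against 0.90 (0.156) without it. Tnfrsf12a in P27 over P20 (0.02) turned to -0.15 without the libraries in which inhibitory exceeded relay markers, and ranged from -0.35 to 0.48 with a library left out. The causes were not tested.

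Over all genes, higher and lower calls with the replicate block against without it were 2970 and 2558 against 893 and 586 in P4 over E18, 3196 and 3212 against 1821 and 1446 in P10 over P4, and 1725 and 1674 against 1084 and 987 in P16 over P10. A log2 fold change of at least 1 left 569 higher in P4 over E18, 1025 and 608 in P10 over P4, and 650 higher in P16 over P10. DESeq2 called 1011 lower in P4 over E18, and the fit of 28 libraries 355. Total-count scaling shifted the median of all genes, to -0.12 in P4 over E18, and the split of calls, to 613 higher and 686 lower in P4 over E18, 1357 and 1695 in P10 over P4, 798 and 1238 in P16 over P10, and 3507 and 6385 in P32 over E18. Low reads limit Tnfrsf25, Tnfrsf11b and both ligands.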

Other observations

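Tnfsf12 was highest in library 4 at 6 of the 7 ages, all but P32, and Tnfrsf1b was highest in library 3 at 5 of the 7. Tnfrsf19 was highest in library 5 at 5 ages. Age groups hold different animals, and the sources used here do not state what libraries of the same number share.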
